A study of Rattus norvegicus with 27 samples.

Results

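In captures of fetal parotid acini, Gpr15lg, Cdhr1, Mex3a, Agtr2 and Ntrk2 read higher on their brightest probe sets than from postnatal day 20 on. These 5 genes were followed through 12 probe sets of the 31042 measured, or 5 of 14217 named genes. They were picked from these same arrays for a large loss between embryonic day 18 (E18) and postnatal day 25 (P25), so the loss itself is a description here and carries no test. Gpr15lg and Cdhr1 were picked for a loss at birth and Agtr2 for a loss at weaning, and those windows carry no p-value for them either. What remained to be examined was when and how far the other probe sets moved, whether the probe sets of a gene moved alike, and what neighbouring and partner genes did.

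The parotid is a serous salivary gland whose acinar cells secrete amylase and other saliva proteins. Acinar cells were captured by laser microdissection from Sprague Dawley rats, which per the labels carried no treatment, at 2 embryonic ages (E18 and E20), on the day of birth (P0), and at 6 postnatal ages from P2 through P5, P9, P15 and P20 to P25. Each of the 9 ages had 3 arrays, and the study's methods state that each array came from a separate litter. Up to P5 heads divided along the midline were sectioned, and from P9 the dissected gland was, so between P5 and P9 age and preparation cannot be told apart. Values are log2 expression on Affymetrix rat genome arrays, where 1 unit is a doubling.

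Gpr15lg encodes a small secreted chemoattractant of epithelia that acts on GPR15, a homing receptor of T cells, in skin and gut. Cdhr1 encodes a cadherin-related protein best known from the outer segments of photoreceptors. Mex3a encodes an RNA-binding protein that marks slowly cycling progenitors in mouse intestine. Agtr2 encodes the type 2 angiotensin receptor, which is abundant in many fetal tissues and scarce in most adult ones. Ntrk2 encodes TrkB, the receptor of brain-derived neurotrophic factor, which exists as a full-length kinase and as truncated forms.

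The promoters of 4 of the 5 genes are shown because the genes moved at different times, and they differed in base composition. Each is the 250 bases before the RefSeq start in the rat assembly GRCr8, 5′ to 3′ on the gene's strand. Capitals mark matches, on either strand, to 5 motifs, and capitals run together where matches overlap. They are TATANA for the TATA box, CCAAT for the box of that name, CAGCTG for an E-box, GGGCGG for the GC box and CCACG for the short arm of the endoplasmic reticulum stress element.
Gpr15lg, chr16:12896135-12896384, minus strand: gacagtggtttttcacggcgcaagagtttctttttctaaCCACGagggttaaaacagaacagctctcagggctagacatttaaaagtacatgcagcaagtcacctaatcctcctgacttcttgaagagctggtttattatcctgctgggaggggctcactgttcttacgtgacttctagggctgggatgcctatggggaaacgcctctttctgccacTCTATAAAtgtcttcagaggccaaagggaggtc
Cdhr1, chr16:12883580-12883829, minus strand: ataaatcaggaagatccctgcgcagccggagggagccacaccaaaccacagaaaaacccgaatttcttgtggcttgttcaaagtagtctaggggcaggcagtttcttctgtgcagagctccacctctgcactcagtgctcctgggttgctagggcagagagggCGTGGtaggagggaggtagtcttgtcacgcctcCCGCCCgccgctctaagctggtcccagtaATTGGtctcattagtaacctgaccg
Mex3a, chr2:176287650-176287899, plus strand: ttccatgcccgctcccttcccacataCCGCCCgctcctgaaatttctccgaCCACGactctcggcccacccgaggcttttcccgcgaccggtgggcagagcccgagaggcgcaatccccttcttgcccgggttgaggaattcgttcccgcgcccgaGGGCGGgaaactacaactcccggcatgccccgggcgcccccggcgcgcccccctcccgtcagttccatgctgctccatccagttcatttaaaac
Agtr2, chrX:116914070-116914319, plus strand: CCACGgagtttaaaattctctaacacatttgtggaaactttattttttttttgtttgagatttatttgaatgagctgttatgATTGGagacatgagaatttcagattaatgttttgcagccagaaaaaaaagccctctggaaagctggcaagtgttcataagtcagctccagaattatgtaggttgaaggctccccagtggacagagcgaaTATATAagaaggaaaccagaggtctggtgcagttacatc

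Gpr15lg and Agtr2, which lay at opposite ends of the timing by their brightest probe sets only, both held a TATANA match near the start. It lay on the plus strand of the gene at -31 to -26 in Gpr15lg and at -39 to -34 in Agtr2. A match to TATANA occurred in 24.2% of all 33469 promoters of this length. Cdhr1 and Mex3a held none in this window and held GGGCGG, present in 30.5% of promoters, once in Cdhr1 and at 2 positions in Mex3a. CCAAT, present in 34.0% of promoters, was found in Cdhr1 and Agtr2, CCACG, present in 27.2%, in each of the 4, and CAGCTG, present in 12.0%, in none of them. The Mex3a promoter had a GC content of 65.6% and 25 CpG sites, more than 90.3% of promoters. Agtr2 lay at the other end, with a GC content of 38.0% (9.8% of promoters were lower) and 2 CpG sites. Gpr15lg had 47.6% GC and Cdhr1 55.6%, either side of the median of 51.2%.

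**Figure D1:**
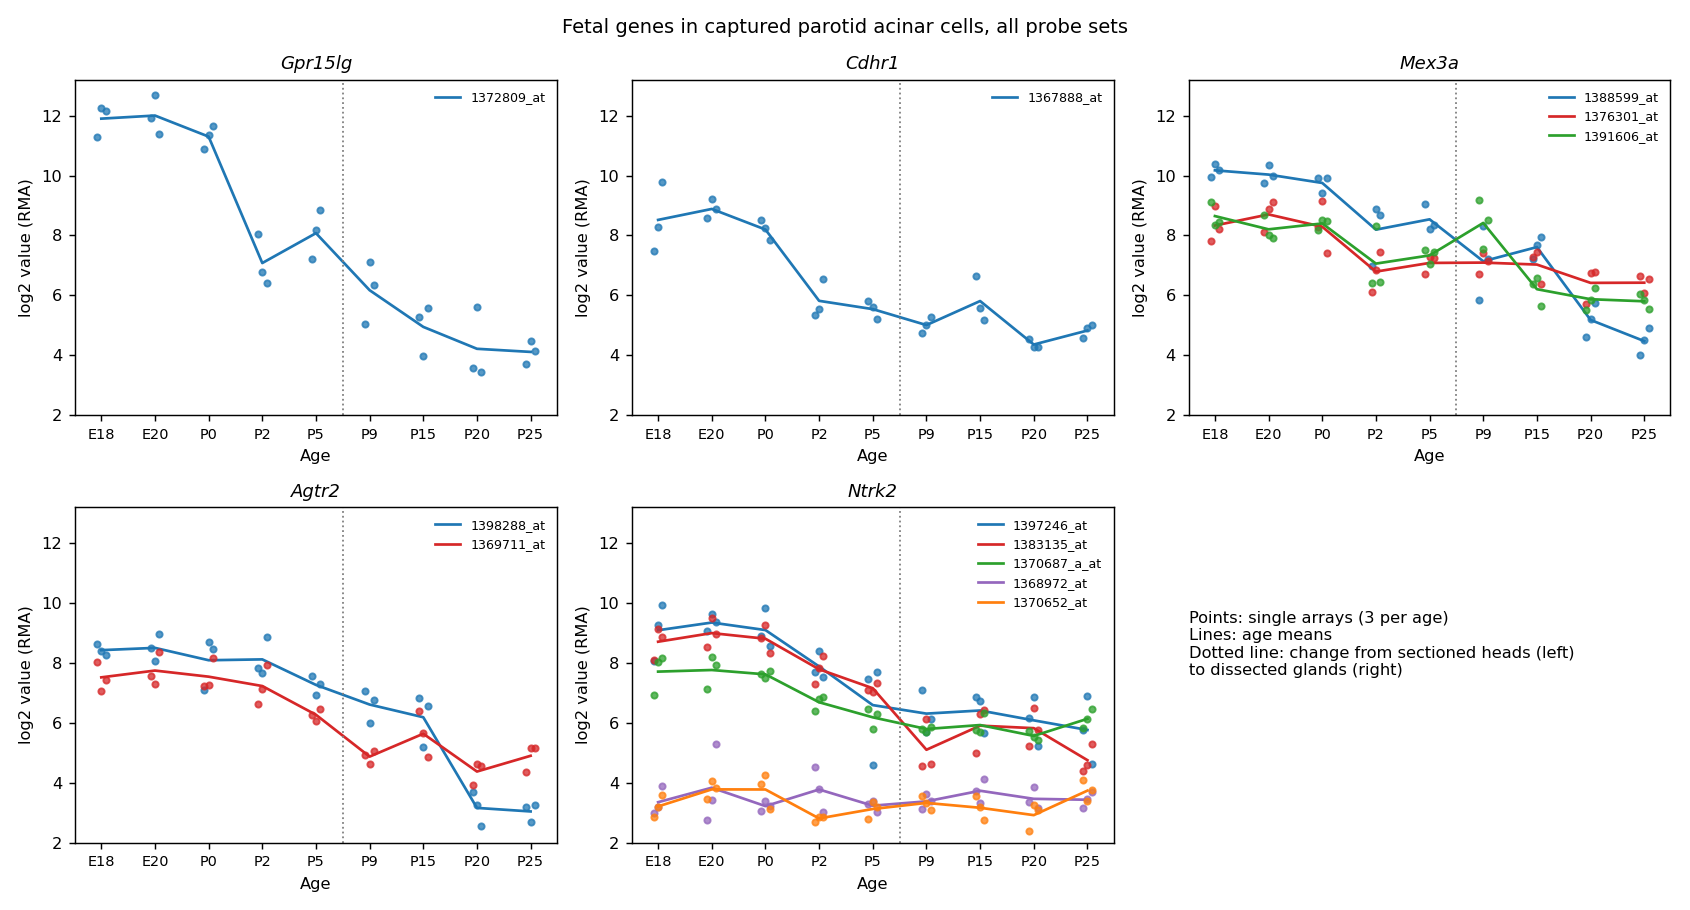
Log2 value (RMA) against age for the 12 probe sets of the 5 genes, where points are single arrays, lines are means of 3 arrays, and the dotted line separates sectioned heads from dissected glands. Gpr15lg and Cdhr1 step down between P0 and P2 and Agtr2 1398288_at between P15 and P20. Mex3a 1388599_at steps down at both and between P5 and P9. Both dim Ntrk2 probe sets stay between 2.40 and 5.31 throughout.

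Gpr15lg, measured by 1 probe set (1372809_at), had the deepest difference between P25 and E18 of all 31042 probe sets, -7.79 ± 0.61 (SE), an interval over which 13.4% of all probe sets passed as lower. The median over all probe sets was 0.24, so relative to it the depth was slightly greater. Its age means were 11.90, 12.00 and 11.30 at E18, E20 and P0, then 7.08 at P2, 8.07 at P5, 6.17 at P9, 4.94 at P15, 4.21 at P20 and 4.11 at P25. The 9 arrays up to birth lay between 10.90 and 12.70, and no later array reached 9.

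At P2 the 3 arrays of Gpr15lg read 8.03, 6.78 and 6.41, against 10.90, 11.36 and 11.64 at P0. This step of -4.23 made up 54.2% of the whole P25 to E18 difference within 2 days. At P5 the arrays read 7.20, 8.18 and 8.85, a mean 1.00 above that at P2, with overlapping arrays. Of the ages ordered by mean, P0 and P5 were the only neighbours whose arrays did not overlap, which left 2 ranges, one prenatal and newborn and one later. The later range sloped down. The mean of P9 and P15 was 5.56, against 7.58 for P2 and P5 (-2.02 ± 0.43, adjusted p = 0.0311, limma with Benjamini-Hochberg adjustment over 31042 probe sets). That window spans the change of preparation, and the arrays of both groups overlapped. The call was lost without 4 arrays rich in markers of neighbouring tissue (adjusted p = 0.0856, limma). These 4 do not include the array highest in skeletal muscle markers, which is of P9. At P20 the mean was 4.21, against 5.56 for P9 and P15 (-1.34 ± 0.53, adjusted p = 0.278), where P20 replicate 2 read 5.62 and the other P20 arrays 3.57 and 3.44.

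Cdhr1, also measured by 1 probe set (1367888_at), moved mostly in the same step. It averaged 8.52 at E18, 8.88 at E20 and 8.20 at P0, then 5.81, 5.54, 5.00, 5.81, 4.35 and 4.82 at P2, P5, P9, P15, P20 and P25. At P2 its arrays read 5.33, 5.56 and 6.55, against 8.52, 8.23 and 7.84 at P0, with no overlap, a step of -2.38 that equalled 64.5% of its P25 to E18 difference of -3.70 ± 0.45. The E18 arrays were the most scattered, at 7.47, 8.29 and 9.79, and without the highest of them the difference was -3.06. From P2 to P15 the age means lay between 5.00 and 5.81. The mean of P9 and P15 differed from that of P2 and P5 by -0.27 ± 0.31 (adjusted p = 0.705, limma). P15 replicate 1 stood at 6.65, above the other P15 arrays at 5.59 and 5.18. All 3 arrays of P20, at 4.53, 4.26 and 4.27, were below every array of P9 and P15, which held for 3.03% of all probe sets. The difference of -1.05 ± 0.39 did not pass (adjusted p = 0.224, limma). From P15 alone to P20 the step was -1.45 ± 0.45, equal to 39.3% of the P25 to E18 difference. It followed a change of 0.80 ± 0.45 from P9 to P15.

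Across the birth window, which sets the 6 arrays of P2 and P5 against the 6 of E20 and P0, all from sectioned heads, Gpr15lg averaged 7.58 against 11.65 (-4.08 ± 0.43, 16.9-fold lower) and Cdhr1 5.68 against 8.54 (-2.86 ± 0.31, 7.28-fold lower). Both values are descriptions, as these genes were picked for that loss. Among all probe sets 1.43% changed in this window, 0.577% of them lower and 0.850% higher, and the median change was -0.01.

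Cdhr1 and Gpr15lg are adjacent protein-coding genes on rat chromosome 16, on the same strand, in the GRCr8 annotation. Their neighbours were therefore examined. Rgr, which encodes an opsin-like receptor of the retina and lies 3 genes along on the Cdhr1 side, fell by 2.03 ± 0.27 over P2 and P5 against E20 and P0 (adjusted p = 0.000195, limma). Its means were 7.18, 8.04, 6.28, 4.94 and 5.31 from E18 to P5 and stayed between 4.99 and 5.44 after that, so it was already lower at P0 than at E20. The fall of Rgr was called in all 27 fits that left out 1 array and without the 4 arrays rich in other tissues' markers (-2.03, adjusted p = 0.00399). Rgr was singled out after its values were seen.

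Not every gene of the interval behaved this way. Lrit1, a photoreceptor gene on the opposite strand between Rgr and Cdhr1, stayed between 2.56 and 3.55 at all ages. Ghitm, a mitochondrial protein gene next to Gpr15lg on its other side, differed by -0.55 ± 0.27 and -0.49 ± 0.26 on its 2 probe sets (adjusted p = 0.442 and 0.495). Lrit2, between Lrit1 and Cdhr1, had no named probe set. The 4 measured markers of photoreceptors and retina, a tissue that a sectioned head contains and in which Cdhr1 and Rgr are best known, averaged between 3.68 and 4.57 on the arrays of P2 and P5 and between 3.96 and 4.20 on those of E20 and P0, with 0 of 4 changed. Their mean was low at E20 and P0 already, so a fall could hardly have shown. The part of eye tissue was not tested.

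**Figure D2:**
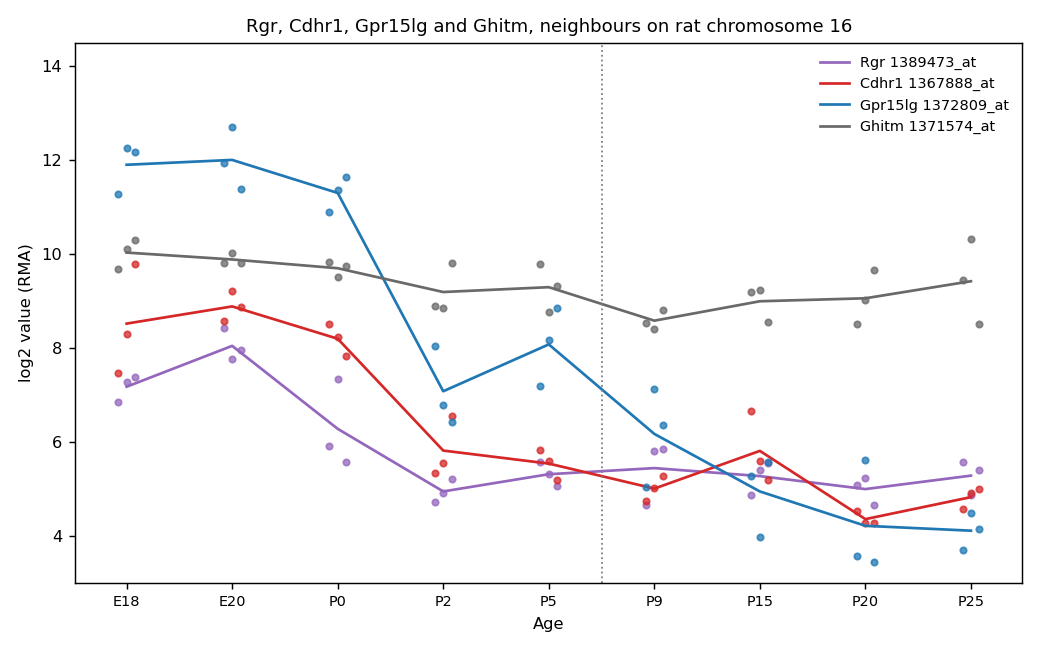
Log2 value (RMA) against age for 4 genes of a chromosome 16 interval, where points are arrays, lines are means of 3. Cdhr1, Gpr15lg and Rgr are lower from P2 on, and Ghitm, the gene beside Gpr15lg, stays between 8.41 and 10.32 on the probe set plotted. Levels of different genes are not comparable on this axis.

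Mex3a was measured by 3 probe sets, and the brightest (1388599_at) stepped down more than once. It averaged 10.18, 10.03 and 9.75 at E18, E20 and P0, 8.19 and 8.54 at P2 and P5, 7.14 and 7.61 at P9 and P15, and 5.18 and 4.47 at P20 and P25, in all -5.71 ± 0.50 between P25 and E18. In the birth window it fell to 8.36, against 9.89 before (-1.53 ± 0.35, 2.88-fold, adjusted p = 0.0296), and no array of P2 or P5 reached any of E20 or P0, which held for 1.21% of all probe sets. From P5 to P9, across the change of preparation, its step was -1.40 ± 0.50. Over P9 and P15 it averaged 7.37, against 8.36 over P2 and P5 (-0.99 ± 0.35, adjusted p = 0.192, limma), with overlapping arrays. At P20 it fell to 5.18, against 7.37 over P9 and P15 (-2.20 ± 0.43, 4.59-fold, adjusted p = 0.00854, limma). No P20 array reached any of P9 or P15, which held for 3.03% of all probe sets. The birth call was lost in 7 of the 27 fits that left out 1 array, with marker covariates (adjusted p = 0.216) and without the 4 arrays rich in other tissues' markers (adjusted p = 0.157). The weaning call was lost without P20 replicate 1 (adjusted p = 0.0858) and in the fit on those ages alone (adjusted p = 0.0828). The P20 arrays read 4.59, 5.20 and 5.74, against 5.86, 8.33 and 7.22 at P9 and 7.22, 7.66 and 7.95 at P15. Its birth and weaning changes were not shown to differ (0.67 ± 0.56, 95% interval -0.49 to 1.83).

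The other Mex3a probe sets gave part of this course. Probe set 1376301_at fell at birth, to 6.93 against 8.49 (-1.56 ± 0.31, adjusted p = 0.0109), and then stayed between 6.41 and 7.09, with -0.65 ± 0.39 at P20 (adjusted p = 0.582). Probe set 1391606_at differed by -1.11 ± 0.31 at birth (adjusted p = 0.0819) and by -1.44 ± 0.38 at P20 (adjusted p = 0.0536), neither past the threshold. It also had a high age in between: its P9 arrays read 9.18, 7.56 and 8.51, against 7.52, 7.04 and 7.44 at P5, and P15 was back at 6.39, 6.57 and 5.65. On the other Mex3a probe sets P9 averaged 7.14 and 7.09, against 8.54 and 7.08 at P5, and the files do not say which transcript each probe set reads.

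Of the RNA-binding proteins listed beside Mex3a, and Lgr5, a receptor of the progenitors that Mex3a marks, 14 of 16 genes were measured. This and the other gene lists were drawn up with earlier results of these data known, so their counts are descriptions. Each list gene counts by its brightest probe set, while the shares given beside the counts cover all probe sets, dim ones included. At birth 3 of the 14 fell, where 0.577% of all probe sets did, and none rose, with a median of -0.22. They were Mex3b, the nearest relative of Mex3a (-1.15 ± 0.25, adjusted p = 0.0169), and Igf2bp1 and Igf2bp2, fetal regulators of mRNA stability (-1.62 ± 0.36 and -1.43 ± 0.36, adjusted p = 0.0237 and 0.0482). Mex3b averaged 7.73 over P2 and P5, against 8.88 over E20 and P0, and was lower again by -1.73 ± 0.25 over P9 and P15 (adjusted p = 0.00149), an interval that spans the change of preparation. At P20 the 1 fall was that of Igf2bp3, to 7.06 against 8.84 (-1.78 ± 0.43, adjusted p = 0.0337). Of its other 2 probe sets 1 passed (-2.34 ± 0.57, adjusted p = 0.0339) and 1 did not (-1.16 ± 0.47, adjusted p = 0.289). These calls were not firm. Without the 4 arrays rich in other tissues' markers Mex3b, Igf2bp2 and Igf2bp3 no longer passed (adjusted p = 0.111, 0.146 and 0.0749, limma). None of the 4 arrays is of P9, P15 or P20, so the Igf2bp3 estimate stayed at -1.78. For Igf2bp3 only the shared error estimate and the adjustment changed. Of the 27 fits that left out 1 array, Mex3b was called in 25 (not without E20 replicate 3 or P2 replicate 1) and Igf2bp2 in 6. Igf2bp1 was called in 20, not without E20 replicate 1 or 2, P0 replicate 2 or 3, P2 replicate 1 or 2, or P5 replicate 3. Igf2bp3 was called in 21, not without P9 replicate 2 or 3, P15 replicate 1 or 2, or P20 replicate 1 or 2.

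Agtr2 had 2 probe sets that both ended low and differed in where most of the loss fell. The brighter one (1398288_at) averaged 8.43, 8.51, 8.10 and 8.12 from E18 to P2, 7.27 at P5, 6.61 at P9, 6.19 at P15, and then 3.16 at P20 and 3.04 at P25. Its P20 arrays read 3.70, 3.25 and 2.54, against 6.83, 5.19 and 6.55 at P15, with no overlap. That step of -3.03 was 56.2% of its P25 to E18 difference of -5.39 ± 0.46. P15 and P20 were its only neighbouring ages, in order of mean, whose arrays did not overlap. Over the weaning window, P20 against P9 and P15, all dissected glands, it averaged 3.16 against 6.40 (-3.24 ± 0.40), a description since Agtr2 was picked for it. Its P20 arrays lay near the level of probe sets that were dim at every age, such as Ntrk2 1368972_at, and no floor is known, so no fold is given and the size of this step and its share hold for the measured values only. Among all probe sets 1.69% changed in this window, 0.686% of them lower and 1.00% higher.

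The dimmer Agtr2 probe set (1369711_at) averaged 7.52, 7.75, 7.55, 7.23, 6.27, 4.88, 5.64, 4.38 and 4.90 from E18 to P25, in all -2.62 ± 0.41. It fell to 5.26 over P9 and P15, against 6.75 over P2 and P5 (-1.50 ± 0.29, 2.82-fold, adjusted p = 0.0143), the window in which preparation changed too. With marker covariates that call was lost (adjusted p = 0.137, limma). The brighter probe set differed in the same window by -1.29 ± 0.32, without passing (adjusted p = 0.0617, and 0.0203 with array weights). The P20 mean of the dimmer probe set, 4.38 against 5.26, gave -0.88 ± 0.35. On this probe set too no P20 array reached any of P9 or P15, which held for 3.03% of all probe sets. The difference between its birth and weaning changes was -0.01 ± 0.45, against 2.64 ± 0.51 for the brighter probe set, where a positive value means a larger drop at weaning. Neither probe set passed at birth: the changes were -0.60 ± 0.32 and -0.89 ± 0.29 (adjusted p = 0.500 and 0.149), with 95% intervals of -1.27 to 0.07 and -1.49 to -0.30.

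The angiotensin system had 16 of 18 listed genes measured, and at birth none of the 16 passed the adjusted threshold in limma (3 had an unadjusted p under 0.05). At weaning 1 rose and 1 fell, where 1.00% of all probe sets rose and 0.686% fell. Agt, the precursor from which angiotensin peptides are cut, rose to 10.70 at P20, against 7.64 over P9 and P15 (3.06 ± 0.25, 8.33-fold, adjusted p = 1.04e-07). Its P20 arrays read 10.73, 10.40 and 10.98, above every array of P9 (6.94, 7.19 and 7.29) and P15 (7.56, 8.30 and 8.59), and its P25 mean was 11.38. The rise of Agt was called in all 27 fits that left out 1 array. Cma1, a mast cell chymase that can make angiotensin II, fell to 4.45 against 7.25 (-2.80 ± 0.66, adjusted p = 0.0293). This call stood in 20 of the 27 fits that left out 1 array. Leaving out P9 replicate 2 or 3, P15 replicate 1 or 3, or any P20 array ended it. Without the 4 arrays Cma1 did not pass either (adjusted p = 0.0550, limma). Its estimate stayed at -2.80 there, since none of the 4 is of P9, P15 or P20. Ace, the converting enzyme, differed by 1.03 ± 0.32 (adjusted p = 0.127), and Thop1, an oligopeptidase that cleaves angiotensin I, by 0.20 ± 0.29 (adjusted p = 0.898) there and -0.67 ± 0.24 at birth (adjusted p = 0.207). Agtr1a and Agtr1b, the type 1 receptors, named for their role, differed by -0.28 ± 0.67 and -0.04 ± 0.21 (adjusted p = 0.946 and 0.980).

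**Figure D3:**
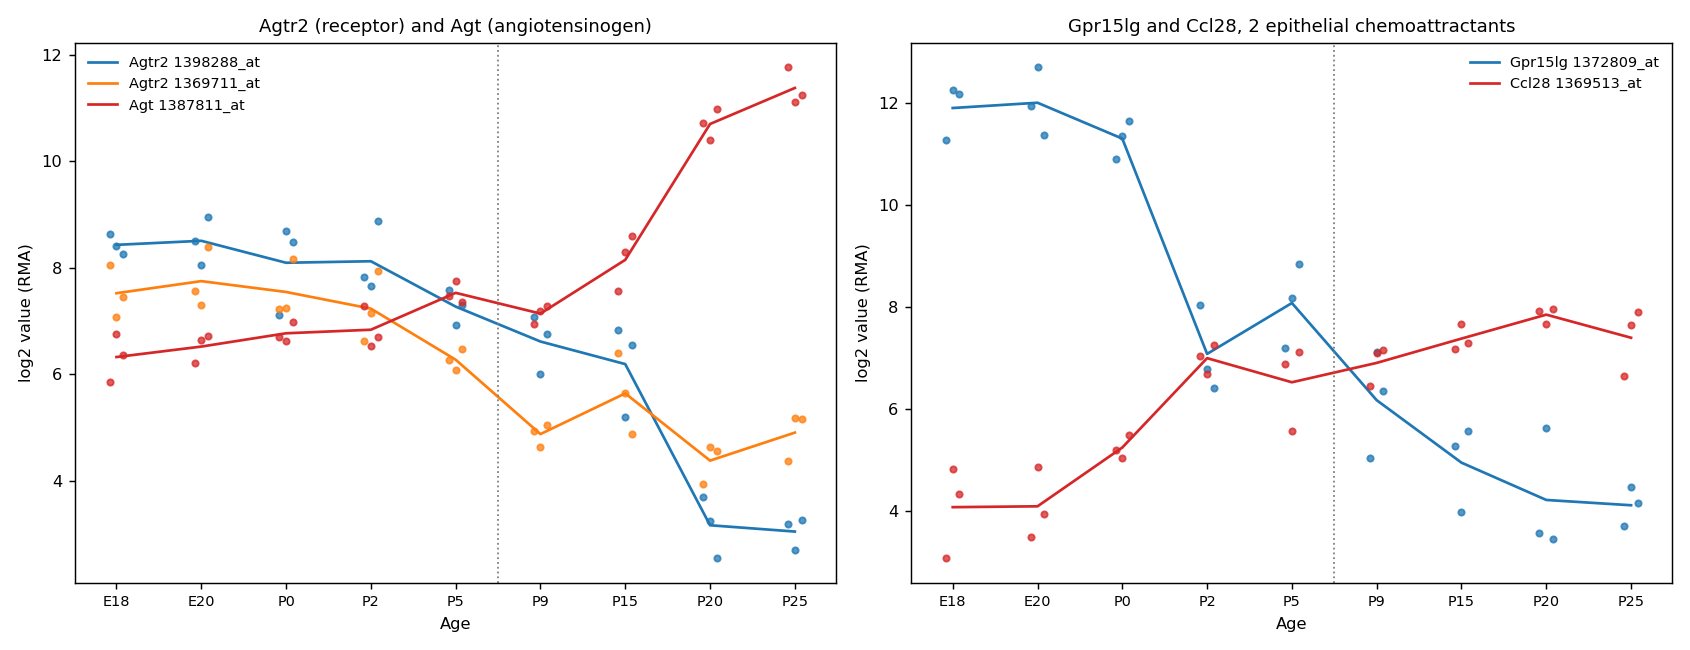
Log2 value (RMA) against age for Agtr2 with Agt (left) and Gpr15lg with Ccl28 (right), where points are arrays, lines are means of 3. Agt is higher at P20 and P25 than at any earlier age and Agtr2 1398288_at is lower. Ccl28 is higher and Gpr15lg lower from P2, and the Ccl28 mean at P0 is already above that at E20. Heights of different genes are not comparable.

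Of the chemokines and receptors listed beside Gpr15lg, 6 of 10 genes were measured, and its receptor Gpr15 was not. Of the 6, 1 rose at birth, where 0.850% of all probe sets did. It was Ccl28, a chemokine of mucosal and salivary epithelium that draws cells bearing CCR10. It averaged 6.76 over P2 and P5, against 4.66 over E20 and P0 (2.10 ± 0.31, 4.28-fold, adjusted p = 0.000703), and was called in all 27 fits that left out 1 array. At P2 the arrays of Ccl28 read 7.04, 6.68 and 7.26, against 5.20, 5.03 and 5.49 at P0. Its mean was already higher at P0 than at E20, 5.24 against 4.09. Cxcl14 and Ccl20 differed by 1.17 ± 0.60 and -0.60 ± 0.23 (adjusted p = 0.470 and 0.264). None of the 6 passed at weaning in limma (1 had an unadjusted p under 0.05).

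Among 13 of 16 measured cadherin genes listed beside Cdhr1, 0 changed at birth by limma, nor at an unadjusted p under 0.05, and the median was -0.07. At weaning 4 fell, where 0.686% of all probe sets did, and none rose. They were Cdh11, a cadherin of mesenchyme (-3.03 ± 0.50, adjusted p = 0.00175), Fat4 (-2.19 ± 0.47, adjusted p = 0.0153), Cdh1, or E-cadherin (-0.90 ± 0.19, adjusted p = 0.0153), and Fat1 (-0.80 ± 0.19, adjusted p = 0.0340). On its other 2 probe sets Cdh11 differed by -0.03 ± 0.33 and -1.22 ± 0.56 (adjusted p = 0.990 and 0.391). Cdh11 was called in all 27 fits that left out 1 array. Fat4 was lost without P20 replicate 1 or 2, Cdh1 without P20 replicate 2 or 3, and Fat1 without P9 replicate 1 or 2, P15 replicate 1 or 2, or P20 replicate 2 or 3.

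Ntrk2 was measured by 5 probe sets, of which 3 were bright before birth and 2 were dim at every age. The brightest (1397246_at) averaged 9.10, 9.35 and 9.10 at E18, E20 and P0, 7.89 and 6.60 at P2 and P5, and between 5.77 and 6.42 from P9 on. It fell to 7.24 over P2 and P5, against 9.23 over E20 and P0 (-1.99 ± 0.49, adjusted p = 0.0443). P5 replicate 2 read 4.60, while the other P5 arrays read 7.47 and 7.72, and without that array the change was -1.49 (adjusted p = 0.110). This call stood in 11 of the 27 fits that left out 1 array, and was lost without any E20 or P0 array, P2 replicate 1 or 3, P5 replicate 2, or 1 of 7 arrays outside this window.

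The second probe set (1383135_at) fell in successive windows. It averaged 7.48 over P2 and P5, against 8.91 over E20 and P0 (-1.43 ± 0.32, adjusted p = 0.0233). That call was lost in 6 of the 27 fits that left out 1 array, with marker covariates (adjusted p = 0.183) and without the 4 arrays rich in other tissues' markers (adjusted p = 0.0760). It then averaged 5.51 over P9 and P15, against 7.48 (-1.97 ± 0.32, 3.92-fold, adjusted p = 0.00457), an interval that spans the change of preparation. In the later of these windows no P9 or P15 array reached any of P2 or P5, which held for 0.725% of all probe sets. The third (1370687_a_at) fell to 6.44, against 7.70 (-1.26 ± 0.22, 2.39-fold, adjusted p = 0.00329), and was called at birth in all 27 fits that left out 1 array. Its P2 arrays read 6.41, 6.81 and 6.86, against 7.62, 7.50 and 7.75 at P0, without overlap. None of the 3 passed at weaning, with changes of -0.28 ± 0.60, 0.32 ± 0.39 and -0.30 ± 0.27 (adjusted p = 0.941, 0.865 and 0.777).

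The other Ntrk2 probe sets (1368972_at and 1370652_at) had age means between 3.22 and 3.84 and between 2.81 and 3.78, and P25 minus E18 was 0.08 ± 0.46 and 0.53 ± 0.31. Their birth changes were -0.02 ± 0.32 and -0.81 ± 0.22 (adjusted p = 0.995 and 0.0741). Correlations over the 27 arrays, which share ages and normalisation, were 0.81, 0.85 and 0.86 among the 3 bright probe sets and 0.01 between the 2 dim ones. Whether the 2 sets read different TrkB transcripts is not given in the sources used here. In the neurotrophin system 15 of 18 listed genes were measured and none of the 15 changed at birth by limma, nor at an unadjusted p under 0.05. The ligand Bdnf, named for its role, differed by -0.15 ± 0.15 at a level near 3.5, and Ntf3 by -0.76 ± 0.39 (adjusted p = 0.810 and 0.477). At weaning only Sort1, which encodes the sorting receptor sortilin, rose among the 15, where 1.00% of all probe sets did, to 8.60 against 7.40 (1.20 ± 0.24, adjusted p = 0.0104), a call lost without P20 replicate 1, and its other probe set differed by 0.51 ± 0.28 (adjusted p = 0.530).

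**Figure D4:**
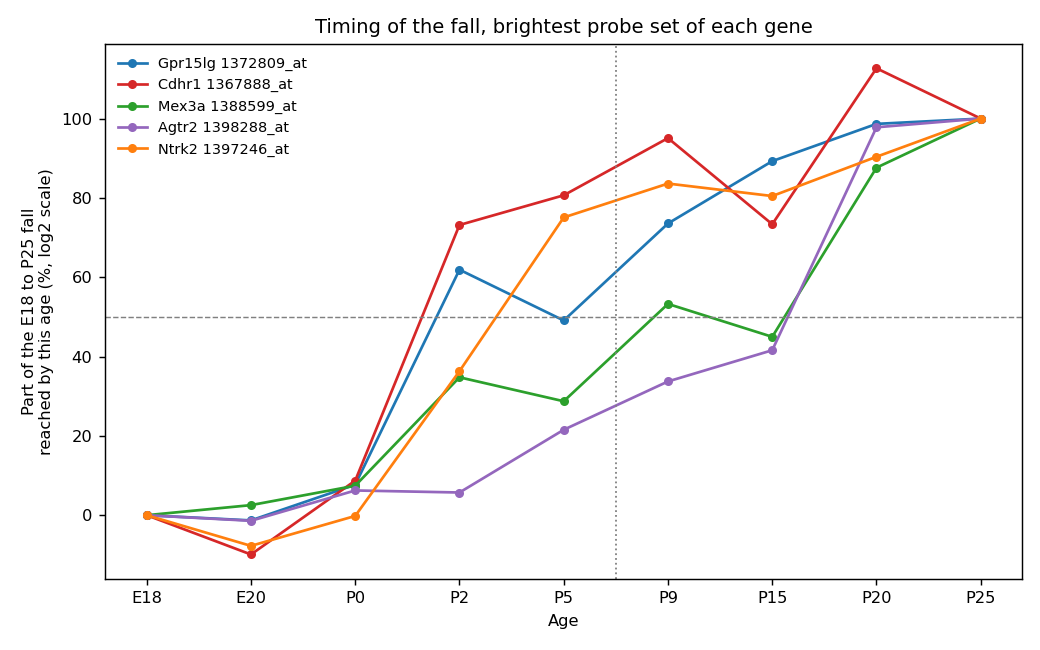
Share of the P25 minus E18 difference reached by each age (%, log2 scale, cumulative over steps between adjacent ages) for the brightest probe set of each gene, with the midpoint dashed. Gpr15lg and Cdhr1 first pass the midpoint at P2, Ntrk2 at P5, Mex3a at P9 and Agtr2 at P20, but without P5 replicate 2 Ntrk2 does so at P9, and without P9 replicate 1 Mex3a does so at P20. Values outside the end levels are ages above E18 or below P25.

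**Figure D5:**
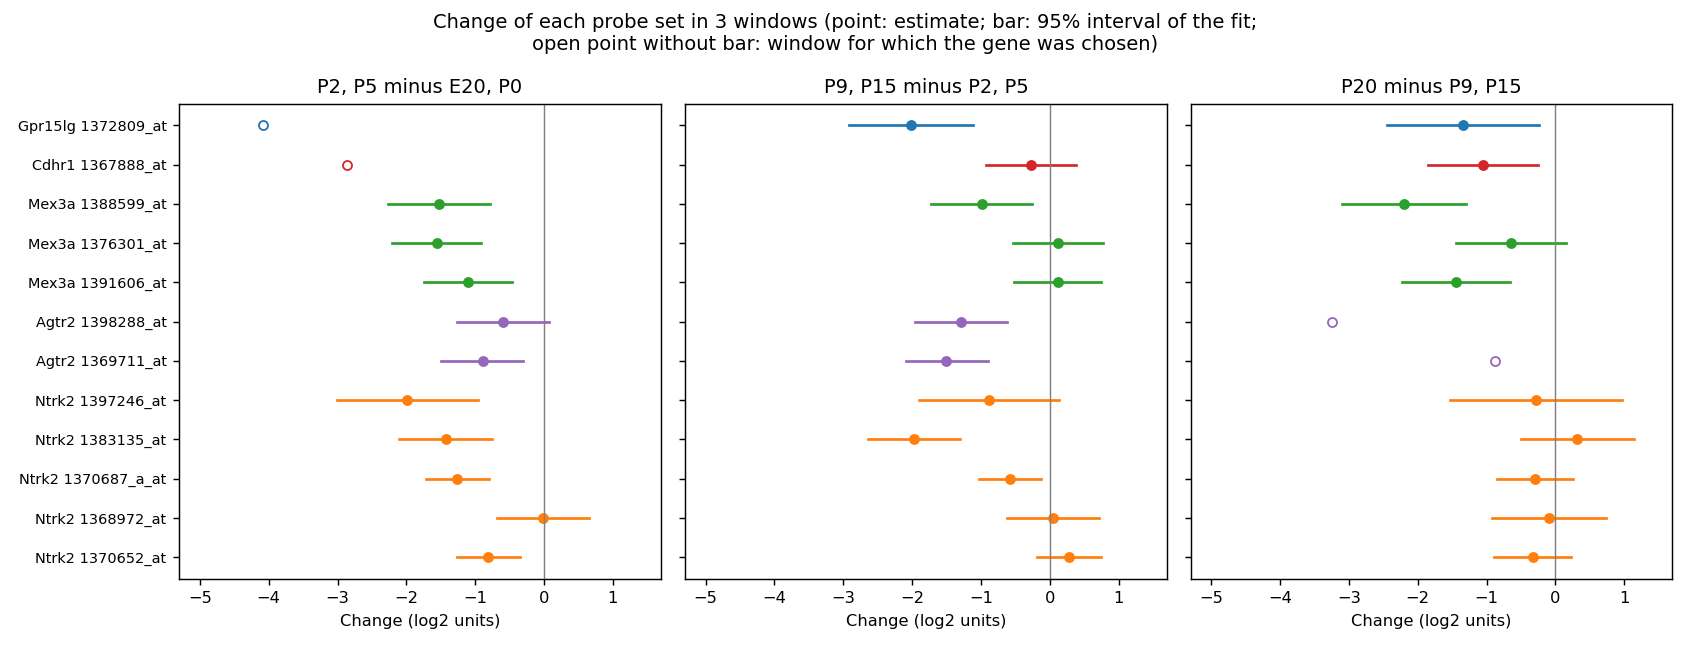
Change in log2 units of the 12 probe sets in 3 windows, later minus earlier ages, where points are estimates, bars 95% intervals of the limma fit, and open points without a bar mark windows for which the gene was picked. Changes at birth run from -4.08 for Gpr15lg to -0.02 for Ntrk2 1368972_at, and at P20 from -3.24 for Agtr2 1398288_at to 0.32 for Ntrk2 1383135_at.

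Set side by side, Gpr15lg and Cdhr1 had differences between their birth and weaning changes of -2.73 ± 0.69 and -1.81 ± 0.50, and Agtr2 1398288_at of 2.64 ± 0.51, as their choice implied. Of the 10 probe sets whose birth change could be tested, 5 fell and none rose, namely 2 of Mex3a and 3 of Ntrk2, where 0.577% of all probe sets fell. Members picked for a large overall loss had to fall in some window, so the count is not evidence of loss at birth as such. It was 2 of 10, Mex3a 1376301_at and Ntrk2 1370687_a_at, without the 4 arrays rich in other tissues' markers. Between P2 and P5 and P9 and P15, 3 of 12 fell, where 0.480% of all probe sets did. That count was 1 of 12 with marker covariates and 2 of 12 without the 4 arrays. At weaning 1 of 10 fell, Mex3a 1388599_at, where 0.686% of all probe sets did. None of the 8 probe sets tested for a difference between both changes passed in limma, where 0.928% of all probe sets did, and 3 had an unadjusted p under 0.05. The nearest was Ntrk2 1383135_at, with -1.75 ± 0.51.

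By Pearson's r over the 27 arrays, among 2554 genes whose age means spanned at least 2 log2 units, the courses most like that of Gpr15lg were those of Sox11 (0.947) and Igf2bp2 (0.938), and like that of Cdhr1 those of Miga1 (0.913) and Sox11 (0.908). Sox11, a transcription factor of embryonic progenitors, averaged 9.28 at E18, 8.86 at P0 and 6.24 at P2. Agtr2 was nearest to Ndn (0.952) and Plagl1 (0.942), both imprinted growth-restraining genes, and Mex3a to Cnn3 (0.946) and Igf2bp3 (0.931). Ndn averaged 10.19 at E18, 7.38 at P15 and 6.07 at P20. Ntrk2 was nearest to Cct2 (0.894) and Bex3 (0.882). These values describe arrays that share age, so they are given without a test.

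The cells captured also changed in other ways. The mean of 7 acinar markers lay between 8.99 and 9.30 on the arrays of P2 and P5, against 6.22 to 7.74 on those of E20 and P0, and between 12.09 and 12.32 at P20, against 9.19 to 10.52 over P9 and P15. Of the 7 acinar markers 4 rose at birth and 2 at weaning, and none fell. At birth the 4 adipocyte markers all rose, with list means of 5.97 to 9.11 against 4.65 to 6.53, as did 3 of 4 markers of myoepithelium and smooth muscle, while 2 of 6 cartilage and bone markers fell. Skeletal muscle markers ran from 5.85 to 12.29 against 5.57 to 12.87, and epidermis markers from 4.96 to 12.37 against 3.74 to 12.19, with 0 changed. E18, E20 and P0 replicate 1 and P5 replicate 2 were the 4 arrays left out above. They were not all the arrays rich in muscle markers. The array with the highest skeletal muscle mean is of P9 and was kept. Fits without the 4 therefore leave the muscle signal of P9 in place. From P2 and P5 to P9 and P15, the adipocyte markers Adipoq and Fabp4 and the nerve marker S100b fell. Acinar Lpo and lymphocyte Jchain rose there. Skeletal muscle means at P20 lay within their wider range over P9 and P15, with no marker called. At P20 the 7 fibroblast markers averaged 9.94 to 9.96, against 10.26 to 10.94, and the 4 duct and basal markers 8.54 to 8.67, against 9.49 to 10.35, with 0 called in either list. Lymphocyte and plasma cell markers averaged 6.24 to 6.66, against 4.40 to 5.31, and 1 of 4 rose, Jchain, the joining chain of secreted antibodies, with means of 10.53 at P20, 3.99 at P9 and 5.90 at P15. Epithelium markers averaged 11.00 to 11.09, against 11.32 to 11.60, and 1 of 4 fell, Cdh1. The part of these cells in the losses was not tested, and fewer cells of a type cannot be told apart from less RNA per cell.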

How the data were processed

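Per the labels, total RNA of captured acinar cells, 1.5 or 4.5 ng, was amplified, biotin labelled and applied to Affymetrix rat genome arrays. Which array had which amount is not given in the sources used here. The deposited values are RMA expression measures in log2 units, that is with background removed and arrays brought to one distribution by the authors, and they come without detection calls. They were used unchanged. Of 31099 probe sets 57 were controls of the array and were dropped. The other 31042 were tested, and of them 20826 had a single gene symbol, 436 had several and 9780 had none.

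One model with a coefficient per age was fitted to the 27 arrays in limma 3.58.1 (R 4.3.3; lmFit and eBayes, 18 residual degrees of freedom), after the fit had been tested on simulated data. P-values are two-sided, adjusted by Benjamini and Hochberg over 31042 probe sets, with a threshold of 0.05. Errors are SE of the fit, so p-values rest on 3 litters per age. Contrasts were P2 and P5 minus E20 and P0, P9 and P15 minus P2 and P5, P20 minus P9 and P15, the first minus the third, and P25 minus E18. No array of E18 or P25 entered the first 4 contrasts. A gene's brightest probe set led in lists. List genes named are those with the largest t, at most 4 per list. Agtr1a, Agtr1b and Bdnf were named besides, after their values were seen. Members and lists were chosen with earlier results of these data known. Alternatives were other normalisations, array weights, marker covariates, a replicate block, fits on fewer ages and leaving out each array. Array medians lay between 5.91 and 6.13 and Pearson correlations within an age were 0.873 to 0.962. Precision is limited by having 3 arrays an age.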

Additional observations from a re-analysis of the deposited data

How the results depend on the processing

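Of the members' values under all alternatives, 2026 counted as unchanged, 51 lost a call, 18 gained one, 29 turned sign and 4 moved without a test. For tested values unchanged means the same direction and side of the threshold. For values given without a test it means a shift smaller than the probe set's SD within ages. A turn of sign among the latter was counted only where the main value was past the threshold. The count of probe sets changed at birth, 443, was 1079 with array weights and 204 with muscle, epidermis and cartilage markers as covariates. For P9 and P15 against P2 and P5 the count of 236 was 1157 and 17 under the same settings. At weaning 524 was 935 with weights and 321 with only the arrays of those ages, and for the difference between both changes 288 was 657 with weights. The causes were not tested. Leaving out 1 array gave 277 to 493 at birth, 101 to 295 for P9 and P15 against P2 and P5, 248 to 603 at weaning, 121 to 317 for the difference and 6829 to 10691 for P25 against E18, where 10393 became 6293 without the 4 arrays rich in other tissues' markers, a choice made after seeing the data. Counts moved by over 1.5 times without E20 replicate 2 or 3 or P0 replicate 2 at birth, without any P20 array at weaning, without P2 replicate 2, P5 replicate 1 or 2, P9 replicate 2, or P15 replicate 2 or 3 for P9 and P15 against P2 and P5, without E20 replicate 2, P0 replicate 1, P5 replicate 3, P15 replicate 3 or any P20 array for the difference, and without E18 replicate 1 for P25 against E18.

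With marker covariates 1 of the 10 tested probe sets fell at birth, Ntrk2 1370687_a_at, in place of 5, and with only the arrays of the birth window 3 did. In fits that left out 1 array, Mex3a 1388599_at kept its birth call in 20 of 27, losing it without E20 replicate 2 or 3, P0 replicate 1 or 3, P2 replicate 1, or P5 replicate 2 or 3. Ntrk2 1383135_at kept its birth call in 21, losing it without E20 replicate 2 or 3, P0 replicate 1 or 2, P2 replicate 1 or P5 replicate 2. Gpr15lg kept its call for P9 and P15 against P2 and P5 in 22, losing it without P2 replicate 1, P5 replicate 2 or 3, P9 replicate 1 or P15 replicate 2. Mex3a 1388599_at lost its weaning call without P20 replicate 1 (-1.90, adjusted p = 0.0858, limma) and in the fit on those ages alone (adjusted p = 0.0828).

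Tested values that turned sign were near 0. Ntrk2 1368972_at at birth was 0.16 with weights and 0.13 with covariates (-0.29 to 0.35 leaving out 1 array), and for P9 and P15 against P2 and P5 -0.10 after quantile normalisation, -0.04 with weights and -0.26 with covariates (-0.14 to 0.24). Its weaning change ran from -0.30 to 0.07 and its difference between both changes from -0.20 to 0.44, with -0.28 without the 4 arrays. For P9 and P15 against P2 and P5, Mex3a 1391606_at was -0.03 with weights (-0.08 to 0.43 leaving out 1 array) and Mex3a 1376301_at -0.10 with covariates (-0.05 to 0.29). At weaning Ntrk2 1397246_at ran from -0.67 to 0.15 and Ntrk2 1383135_at from -0.01 to 0.62.

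Arrays of the same replicate number were not taken as paired, since a correlation above 0.1 in every pair was required. Over 108 same-numbered pairs the correlation of deviations had a median of 0.014 (-0.108 to 0.459), 11 were above 0.1, and 16 of 27 arrays were closest to their own number, a hint from the data and not from the design. With the replicate number as a block 4 of the 10 probe sets fell at birth, Ntrk2 1397246_at being lost (adjusted p = 0.0564, limma), and Ntrk2 1383135_at passed for the difference between both changes (-1.75, adjusted p = 0.0367). Without detection calls, a floor for values near 3 is not known.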
